A study of Mus musculus with 17 samples.

Results

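The metabotropic glutamate receptor genes Grm2, Grm4, Grm5, Grm7 and Grm8 were followed through the cortex of hnRNPH2 mutant and knockout mice. They were taken by gene symbol from a table of TPM values (the share of a transcript, corrected for its length, among 1000000 transcripts) with 55453 distinct symbols, and 5 of 5 passed the filter of a mean of at least 1 TPM that left 16265 genes for testing. The samples were bulk cortex RNA of 17 mice, all C57BL/6J males, divided among 6 groups. Hemizygous Hnrnph2 knockout mice (KO, n = 3) and their wild-type controls (KO Control, n = 3), and hemizygous Hnrnph2 R206W mice (R206W, n = 3) and their wild-type controls (R206W Control, n = 3), were 8 weeks old. Hemizygous Hnrnph2 P209L mice (P209L, n = 3) and their wild-type controls (P209L Control, n = 2) were 3 weeks old. The knockout carried a frameshift indel and the other lines were knockins of a single substitution in the RNA-binding protein hnRNPH2, which is encoded on the X chromosome, so every allele was present in all cells of the animal. Because only the P209L line was sampled at 3 weeks, line and age cannot be told apart in any comparison of that line with the others. In bulk tissue, fewer cells of a type and less RNA per cell cannot be told apart either. The table gives no read counts, so the depth of each library is unknown and precision was judged from the spread between mice.

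Metabotropic glutamate receptors are G protein-coupled receptors that adjust synaptic transmission more slowly than the ionotropic AMPA and NMDA receptors. Group I receptors, to which Grm5 belongs, sit mainly around the postsynaptic density and act through Gq, phospholipase C and release of calcium from internal stores. Group II (Grm2) and group III (Grm4, Grm7 and Grm8) receptors couple to Gi/o proteins, inhibit adenylyl cyclase, and in large part act at presynaptic terminals, where they restrain transmitter release. Grm7 is found in the active zone itself, and Grm5 is also known in astrocytes, particularly in young brain.

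By the GENCODE M21 annotation of GRCm38, the build (as mm10) that the submitters' processing notes name, Grm5 (ENSMUSG00000049583.15) lay on chromosome 7 from 87584168 to 88134907 on the plus strand. Grm2 (ENSMUSG00000023192.12) lay on chromosome 9 from 106643095 to 106656082 on the minus strand, and Grm4 (ENSMUSG00000063239.17) on chromosome 17 from 27422387 to 27521403 on the minus strand. Both Grm7 (ENSMUSG00000056755.13, 110645581 to 111567230, plus strand) and Grm8 (ENSMUSG00000024211.15, 27275119 to 28135178, minus strand) were on chromosome 6. The genes differed widely in span, from 12.988 kb for Grm2 and 99.017 kb for Grm4 to 550.74 kb for Grm5, 860.06 kb for Grm8 and 921.65 kb for Grm7. Their exons covered 4894 bases in Grm2, 5886 in Grm7, 5977 in Grm4, 9898 in Grm8 and 10247 in Grm5. Antisense genes overlapped the 3′ end of Grm2 (Gm28111) and the 5′ end of Grm7 (Gm20387), and the microRNA gene Mir592 lay within Grm8 on the same strand. In all, 6 annotated genes overlapped Grm5, 5 of them on its own strand, and 2 overlapped Grm4. The library kit marks strand, but whether strand was used in counting is not given in the sources used here. Reads from overlaps on opposite strands could therefore have been assigned to either gene. Strand does not separate genes that overlap on the same strand.

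The promoters of the receptors are shown where a RefSeq window (GRCm38.p6, 250 bases before to 50 after a transcript start) was at hand as context for the comparison of ages. In that comparison Grm7 and Grm8 passed among controls and Grm2 passed only over all mice, and no difference between the genes was tested. Windows were at hand for 3 of the 5 genes, and the window nearest to the annotated 5′ end is given for each, 5′ to 3′ along the gene. Capitals mark GGGCGG, the core of the GC box bound by Sp factors.
Grm2, chr9:106656060-106656359, minus strand: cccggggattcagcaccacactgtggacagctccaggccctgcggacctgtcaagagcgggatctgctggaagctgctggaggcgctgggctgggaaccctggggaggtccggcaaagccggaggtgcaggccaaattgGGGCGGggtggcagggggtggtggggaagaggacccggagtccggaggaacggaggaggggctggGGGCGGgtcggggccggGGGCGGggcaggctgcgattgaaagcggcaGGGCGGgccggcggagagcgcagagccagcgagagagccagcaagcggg
Grm7, chr6:110645348-110645647, plus strand: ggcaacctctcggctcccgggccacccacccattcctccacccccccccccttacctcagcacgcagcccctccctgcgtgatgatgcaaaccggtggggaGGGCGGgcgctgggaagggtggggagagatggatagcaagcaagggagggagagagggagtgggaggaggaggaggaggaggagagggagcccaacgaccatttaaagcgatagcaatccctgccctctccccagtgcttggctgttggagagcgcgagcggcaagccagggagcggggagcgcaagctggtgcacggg
Grm8, chr6:28135097-28135396, minus strand: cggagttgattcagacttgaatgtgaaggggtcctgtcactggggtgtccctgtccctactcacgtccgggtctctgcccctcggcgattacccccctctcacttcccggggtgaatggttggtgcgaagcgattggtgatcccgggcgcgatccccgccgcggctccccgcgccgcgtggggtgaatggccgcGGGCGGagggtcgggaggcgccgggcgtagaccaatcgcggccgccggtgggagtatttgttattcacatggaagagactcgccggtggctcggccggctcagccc
The Grm2 window held 4 copies of GGGCGG (counted on both strands, without overlaps), a number that 4.65% of the 32851 mouse promoter windows reached. The Grm7 and Grm8 windows held 1 each, and 35.66% of all windows held at least 1. None of the 3 held TATAAA on either strand, which 13.62% of all windows did. All were richer in G and C than the median window (52.67%), with 72.0% in Grm2, 66.67% in Grm7 and 67.0% in Grm8. The Grm8 window also held 33 CpG dinucleotides, against a median of 7, and the Grm2 and Grm7 windows held 22 and 15. The 3 genes had 6 windows in all, and those not shown differed. Windows of Grm8 farther from its annotated 5′ end had 54.0% and 43.33% G and C, with 10 and 2 CpG dinucleotides. A further Grm7 window had 61.0% and 10. A match to these letters describes the window and does not show a bound site.

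All 5 receptors were detected in every mouse, and their order was the same in all 17. Grm5 was the most abundant, followed by Grm7, Grm2, Grm4 and Grm8, and each receptor exceeded the next in 17 of 17 mice. Over all mice the mean levels were 50.03 ± 16.1 TPM for Grm5, 29.1 ± 6.34 for Grm7, 17.7 ± 5.15 for Grm2, 8.14 ± 2.18 for Grm4 and 6.04 ± 1.65 for Grm8 (SD, n = 17). These levels placed Grm5 above 79.8% of the tested genes, Grm7 above 66.7% and Grm8 above 29.9%. Across the 12 mice of 8 weeks the ranges of neighbours in this order overlapped, so the order held within a mouse but not between all mice. Without KO Control 1, a library described below, only Grm4 (6.6 to 11.36 TPM) and Grm8 (4.73 to 8.88 TPM) overlapped. Grm5 was then at 42.83 TPM or more, Grm7 at 28.66 to 40.28 TPM and Grm2 at 15.91 to 27.23 TPM. Across the 5 mice of 3 weeks no neighbouring ranges overlapped. The narrowest step was that from Grm4 to Grm8, with a ratio of 1.04 in KO 2 and a median of 1.31 over all mice. Beside them, the group II receptor Grm3 was at 39.9 ± 13.5 TPM (SD, n = 17), while Grm6, the receptor of retinal ON bipolar cells, did not exceed 0.03 TPM in any mouse and was not tested.

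**Figure D1:**
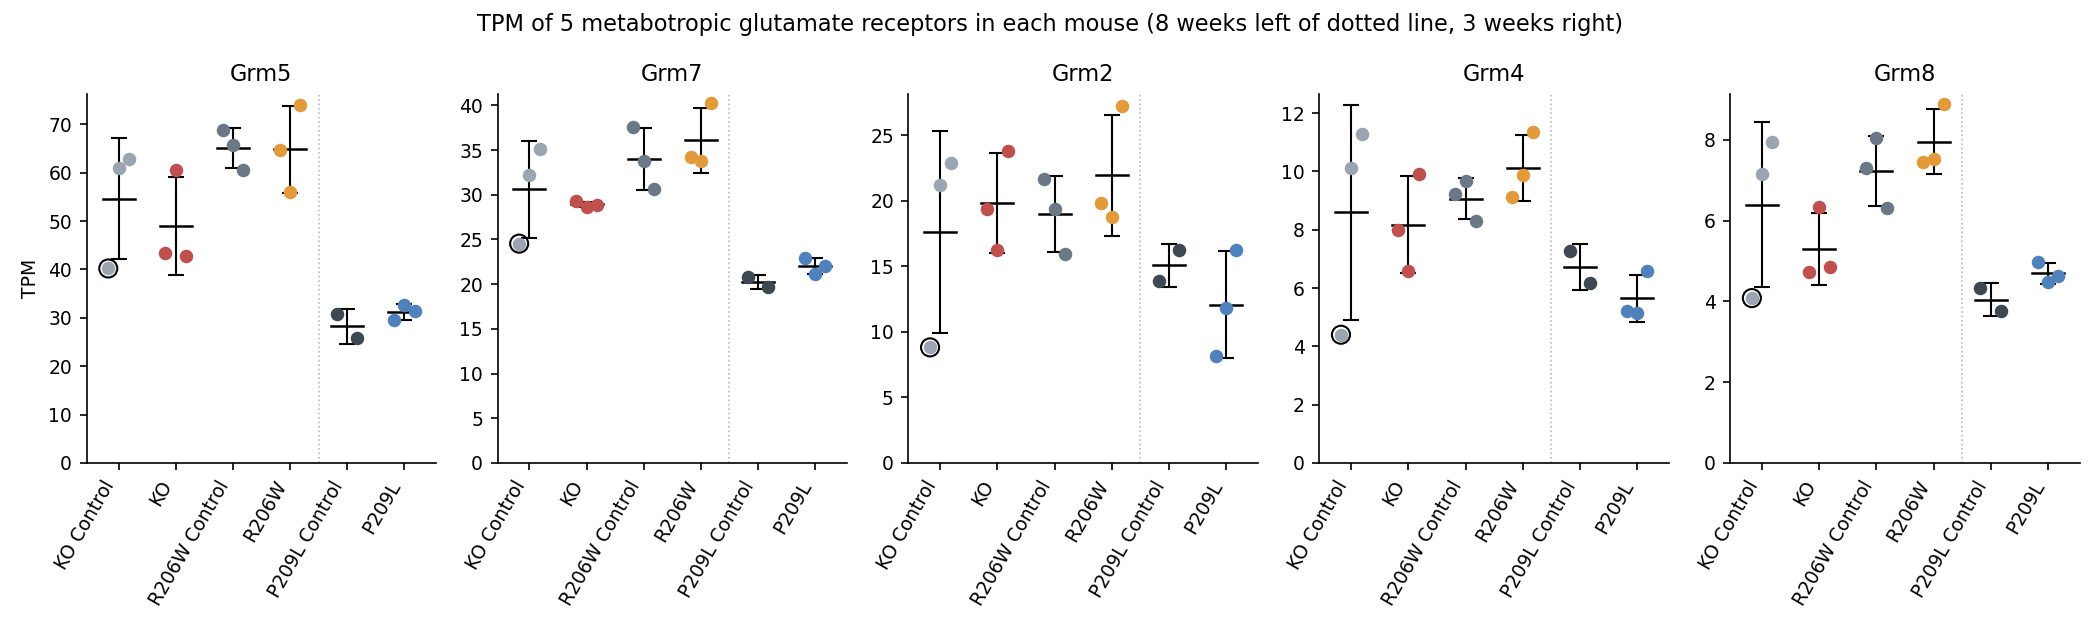
TPM of Grm5, Grm7, Grm2, Grm4 and Grm8 (y axes, 1 panel per gene, each from 0) in each mouse (points) of the 6 groups, with the group mean (horizontal line) and SD (bar). The ringed point is KO Control 1, the lowest of the KO controls for each of the 5 receptors, and the 3-week groups right of the dotted line sit below all 8-week mice for Grm5 and Grm7.

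The spread between mice was widest in KO Control for each of the 5 receptors. There the coefficient of variation was 43.5% for Grm2, 42.8% for Grm4, 31.9% for Grm8, 23.0% for Grm5 and 17.8% for Grm7, and in each case KO Control 1 was the low value. Without that mouse it was 7.59% or less for each receptor. In KO mice Grm7 varied by 1.05% and Grm5 by 20.6%, and in P209L mice Grm7 varied by 4.13% and Grm2 by 33.7%.

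Some libraries stood apart and are given here because results rest on them. In KO Control 1 mitochondrial transcripts took 20.1% of all TPM, against 10.7% to 15.4% in the other 16 libraries, and its 10 most abundant genes took 36.5%. P209L Control 2 had a summed level of 6 choroid plexus markers of 1781 TPM, against 4.72 to 28.4 TPM in the other mice. Markers of the labelled tissue were present. Of the cortical excitatory neuron markers 10 of 10 were tested, and their sum was between 2053 and 4596 TPM in each mouse. Striatal markers summed to 90.8 to 155.3 TPM, hippocampal markers to 24.7 to 56.8 TPM and thalamic markers to 20.2 to 33.6 TPM. In P209L 2 the hippocampal sum was 50.4 TPM, against 24.7 to 33.3 TPM in the other 3-week mice. The part of neighbouring regions in the samples was not tested. The 8 cerebellar granule cell markers summed to 16.4 to 31.4 TPM, of which 4 passed the filter (Cbln1, Pax6, Zic1 and Zic2) and Barhl1 and En2 never reached 1 TPM. Hnrnph2 itself was at 21.3 to 24.4 TPM in KO and 80.5 to 144.7 TPM in KO Control mice, a log2 difference of -2.30 (adjusted p = 8.64e-06).

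The KO comparison asked whether loss of hnRNPH2 altered receptor expression at 8 weeks, and no receptor passed the test. At an adjusted p under 0.05, 0 of the 5 receptors differed (limma with Benjamini-Hochberg adjustment over all genes; 0 of 5 also at an unadjusted p under 0.05, a level that 4.08% of all genes reached), where 0.00615% of all tested genes passed. Grm5 was at 43.38, 60.58 and 42.83 TPM in KO mice and at 40.19, 61.00 and 62.72 TPM in KO Control mice. Each group held mice at both ends of the range, and the log2 difference was -0.15 (95% interval -0.51 to 0.21). Grm2 was at 19.37, 16.28 and 23.84 TPM in KO and 8.82, 21.20 and 22.86 TPM in KO Control mice, with a log2 difference of 0.25 (-0.37 to 0.87). Grm4 was at 8.01, 6.60 and 9.93 TPM against 4.4, 10.13 and 11.27 TPM, with a log2 difference of 0.0071 (-0.49 to 0.50). For both genes KO Control 1 lay below every KO mouse, while the other controls lay inside or above the KO range. Grm7 was at 29.25, 28.66 and 28.83 TPM against 24.53, 32.20 and 35.06 TPM (log2 difference -0.064, -0.33 to 0.20), so that the narrow KO values fell inside the control range. Grm8 was at 4.73, 6.33 and 4.85 TPM against 4.08, 7.14 and 7.95 TPM (log2 difference -0.20, -0.57 to 0.18). In none of the 5 did the groups separate, as they did in 6.25% of all genes.

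The KO values turned on KO Control 1. Without it the log2 differences of the 5 receptors were all below 0, at -0.45 for Grm8, -0.36 for Grm4, -0.35 for Grm5, -0.21 for Grm7 and -0.16 for Grm2, while the median of all genes was -0.059. In 4 of 5 receptors (all but Grm2) the KO mice then lay below both remaining controls, as they did in 17.2% of all genes. None passed the adjusted threshold in that fit (0.0307% of all genes did); the smallest adjusted p = 0.406 was that of Grm8, below whose log2 difference lay 2.21% of all genes. With libraries weighted by their fit to the model, which gave KO Control 1 a weight of 0.0819, Grm8 (-0.44, adjusted p = 0.0212), Grm5 (-0.37, adjusted p = 0.0375) and Grm4 (-0.35, adjusted p = 0.0478) passed as lower in KO, in a fit where 13.1% of all genes passed. Markers of other cell types were compared between these groups in the main fit, which keeps KO Control 1, and none passed the adjusted threshold. The median of all genes was 0.064 there, 32.5% of genes lay below 0, and 4.08% had an unadjusted p under 0.05. Cerebellar granule cell markers summed to 23.5 to 31.4 TPM in KO and 16.4 to 18.2 TPM in KO Control mice, without overlap with or without KO Control 1, and 4 of 4 tested had an unadjusted p under 0.05 (median log2 difference 0.44, smallest adjusted p = 0.584). Astrocyte markers summed to 1447 to 1727 TPM in KO and 1097 to 1471 TPM in KO Control mice, with 8 of 8 above 0 and 3 of 8 at an unadjusted p under 0.05 (median 0.27, smallest adjusted p = 0.999). Above 0 were also 8 of 8 oligodendrocyte, 6 of 7 oligodendrocyte precursor, 6 of 7 microglia and 6 of 7 leptomeningeal markers. For cortical excitatory neuron markers it was 6 of 10 and for interneuron markers 6 of 9. The part of these markers and of the mitochondrial share of KO Control 1 in the receptor values was not tested.

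**Figure D2:**
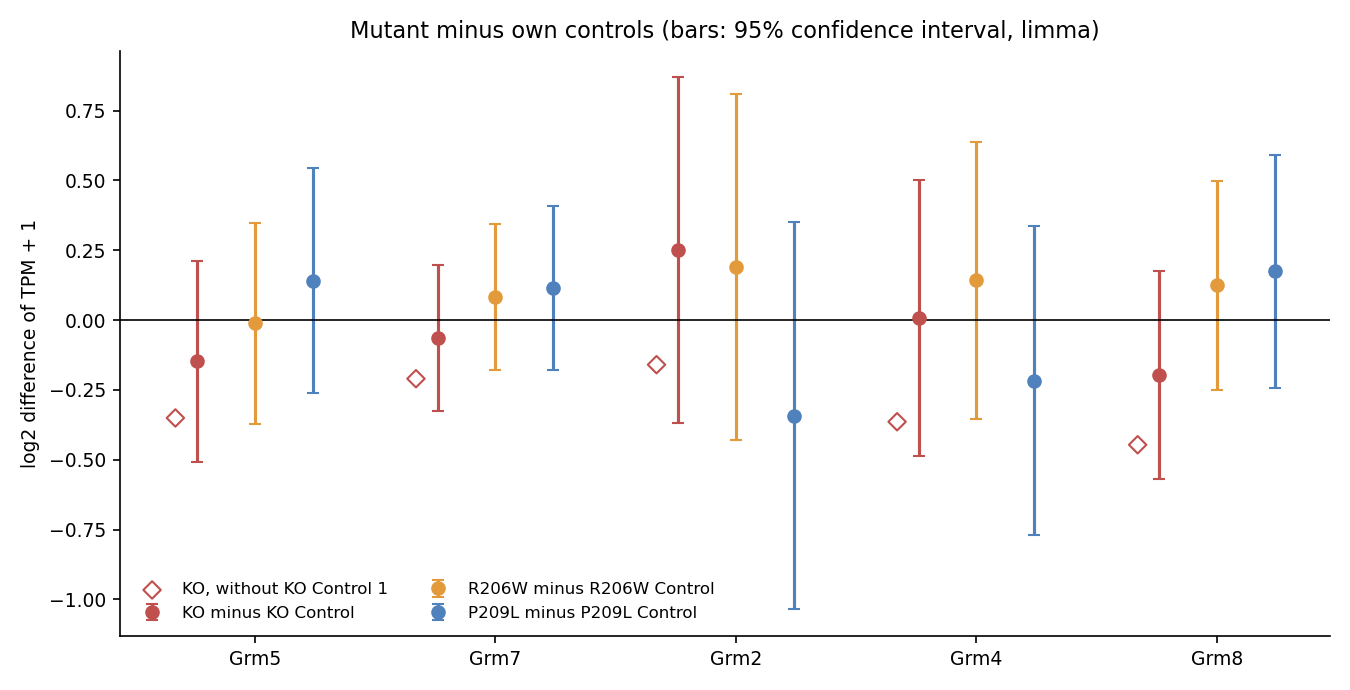
Log2 difference of TPM + 1 (y axis) of each receptor (x axis) in KO, R206W and P209L mice against their own controls, as filled points with 95% confidence intervals, and in KO without KO Control 1 as open diamonds. Each interval spans 0, and the 5 open diamonds lie between -0.45 and -0.16, each below the filled KO point of its gene.

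The R206W comparison put the same question to a substitution that leaves the Hnrnph2 transcript in place. Again 0 of 5 receptors passed, at either the adjusted threshold (0.0369% of all genes passed) or an unadjusted p under 0.05 (2.19%). Grm5 was at 64.65, 55.95 and 73.89 TPM in R206W and 68.71, 65.81 and 60.61 TPM in R206W Control mice, a log2 difference of -0.012 (-0.37 to 0.35). Grm2 was at 19.80, 18.79 and 27.23 TPM against 21.69, 19.38 and 15.91 TPM (0.19, -0.43 to 0.81). In both genes the highest value was that of R206W 3, which was also the highest of the 6 mice for each of the group III receptors. Grm4 was at 9.13, 9.89 and 11.36 TPM against 9.23, 9.69 and 8.29 TPM (0.14, -0.35 to 0.64). Grm7 was at 34.17, 33.76 and 40.28 TPM against 37.63, 33.73 and 30.67 TPM (0.083, -0.18 to 0.35), and Grm8 at 7.45, 7.52 and 8.88 TPM against 7.31, 8.04 and 6.32 TPM (0.12, -0.25 to 0.50). The groups overlapped in each receptor, where 16.2% of all genes had groups that did not. R206W 3 had the lowest mitochondrial share of the 17 libraries (10.7%), whose part in these values was not tested.

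The P209L comparison was made at 3 weeks, and 0 of 5 receptors passed there (0 of 5 at an unadjusted p under 0.05, a level that 7.46% of all genes reached), where 0.0984% of all genes did. Grm5 was at 29.58, 32.69 and 31.34 TPM in P209L and 30.84 and 25.73 TPM in P209L Control mice, a log2 difference of 0.14 (-0.26 to 0.54). Grm7 was at 22.95, 21.13 and 21.99 TPM against 20.84 and 19.69 TPM (0.11, -0.18 to 0.41), and Grm8 at 4.97, 4.47 and 4.63 TPM against 4.34 and 3.75 TPM (0.18, -0.24 to 0.59). For Grm7 and Grm8 all P209L mice lay above both controls, as was the case in 14.2% of all genes, and the exact permutation test gave p = 0.2 for Grm7 and p = 0.1 for Grm8, where 0.1 is the smallest this design allows. Both genes were also lower in P209L Control 1 alone than in each P209L mouse. Grm2 was at 8.13, 11.81 and 16.26 TPM against 13.89 and 16.25 TPM (-0.34, -1.03 to 0.35), and Grm4 at 5.23, 5.14 and 6.58 TPM against 7.27 and 6.16 TPM (-0.22, -0.77 to 0.34). In these genes the P209L mean was the lower, with overlap through P209L 3. The lower control for Grm5, Grm7 and Grm8 was P209L Control 2, the library with choroid plexus transcripts. Oligodendrocyte markers (8 of 8 tested) summed to 4099 and 6110 TPM in P209L Control and 2472 to 3547 TPM in P209L mice (8 of 8 lower at an unadjusted p under 0.05, none past the adjusted threshold), and their part in the receptor values was not tested.

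The effects of the alleles were then set against each other. The KO effect minus the R206W effect was between -0.32 (Grm8, 95% interval -0.85 to 0.21) and 0.059 (Grm2, -0.82 to 0.93) on the log2 scale, and no receptor passed where 0.0307% of all genes did. The KO effect minus the P209L effect was between -0.37 (Grm8, -0.93 to 0.19) and 0.59 (Grm2, -0.34 to 1.52), with none past the threshold (0.0492% of all genes), and the R206W effect minus the P209L effect between -0.15 (Grm5, -0.69 to 0.39) and 0.53 (Grm2, -0.40 to 1.46), again with none (0% of all genes). At an unadjusted p under 0.05 the count was 0 of 5 in each. Each interval quoted reaches more than 0.5 from 0 in at least 1 direction, so these values do not show that the alleles act alike.

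Receptor levels differed between the ages. Wild-type cortex at 3 weeks (P209L Control) was compared with the mean of both groups of wild-type cortex at 8 weeks, and 3 of the 5 receptors were lower at 3 weeks, where 24.8% of all genes were lower (36.1% in either direction). Grm5 was at 30.84 and 25.73 TPM in 3-week controls. In 8-week controls it ranged from 40.19 to 68.71 TPM with a median of 61.9. The groups did not overlap, as in 21.5% of all genes in this direction, and the 3-week mean was 47.3% of the 8-week mean (log2 difference -1.04, SE 0.169, adjusted p = 0.000381). Grm7 was at 20.84 and 19.69 TPM against 24.53 to 37.63 TPM (median 33.0), again without overlap, with a mean 62.7% of the older one (log2 difference -0.64, SE 0.124, adjusted p = 0.00131). Exact permutation of the TPM values gave p = 0.0357 for both, the smallest that 2 mice against 6 allow. Grm8 was at 4.34 and 3.75 TPM against 4.08 to 8.04 TPM (median 7.23; log2 difference -0.61, SE 0.176, adjusted p = 0.0145), overlapping the older mice only through KO Control 1, and its exact permutation p = 0.0714. With P209L Control 1 or P209L Control 2 left out, Grm8 no longer passed (adjusted p = 0.0578 and 0.143).

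Grm2 and Grm4 did not pass in the same comparison. Grm2 was at 13.89 and 16.25 TPM against 8.82 to 22.86 TPM (median 20.3), a log2 difference of -0.21 (95% interval -0.83 to 0.41). Grm4 was at 7.27 and 6.16 TPM against 4.4 to 11.27 TPM (median 9.46), with a log2 difference of -0.31 (-0.80 to 0.19). In both genes KO Control 1 lay below both 3-week controls and each of the other 5 controls of 8 weeks lay above at least 1 of them. Without KO Control 1, Grm4 passed as well (-0.49, adjusted p = 0.00888) and Grm2 did not (-0.42, adjusted p = 0.121), which made 4 of 5 lower where 37.4% of all genes were. With neither KO Control 1 nor P209L Control 2, a choice made after the data were seen, 3 of 5 were lower (27.8% of all genes).

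Much of the transcriptome differed between the ages, which here also means between lines, and the receptors are best read against that difference. The median log2 difference of all genes was -0.12 and that of the 5 receptors -0.61. Genes with long exonic sequence had a lower median at 3 weeks. When the genes were cut into 10 bins of equal size by exonic length, the 1614 genes of the longest bin (9533 to 41324 bases), which holds Grm5 and Grm8, had a median of -0.43. Within that bin 7.13% of genes lay below Grm5 and 34.4% below Grm8, so that Grm8 was not far from the middle of genes of its length. Grm7 and Grm4 belong to a bin (5807 to 7187 bases) with a median of -0.22, in which 16.9% of genes lay below Grm7 and 41.8% below Grm4, and Grm2, in a bin with a median of -0.20, had 48.9% below it. With median-of-ratios size factors, which brought the median of all genes from -0.12 to near 0, Grm5 (-0.90), Grm7 (-0.50) and Grm8 (-0.49) still passed, and the genes past the threshold changed from 1837 higher and 4039 lower to 3503 higher and 3677 lower. Cell type markers were compared between the same controls, where 24.8% of all genes were lower at 3 weeks. Of 10 cortical excitatory neuron markers 4 were lower at 3 weeks and none was higher (median -0.35), with a sum of 2699 and 2963 TPM against 2490 to 4340 TPM. Of 8 astrocyte markers 2 were lower, near that share, and none was higher (median -0.38; 1006 and 1301 TPM against 1097 to 1471 TPM). Oligodendrocyte markers went the other way, with 6 of 8 higher where 11.3% of all genes were (median 0.73; 4099 and 6110 TPM against 2629 to 3607 TPM). The part of these markers in the receptor values was not tested.

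**Figure D3:**
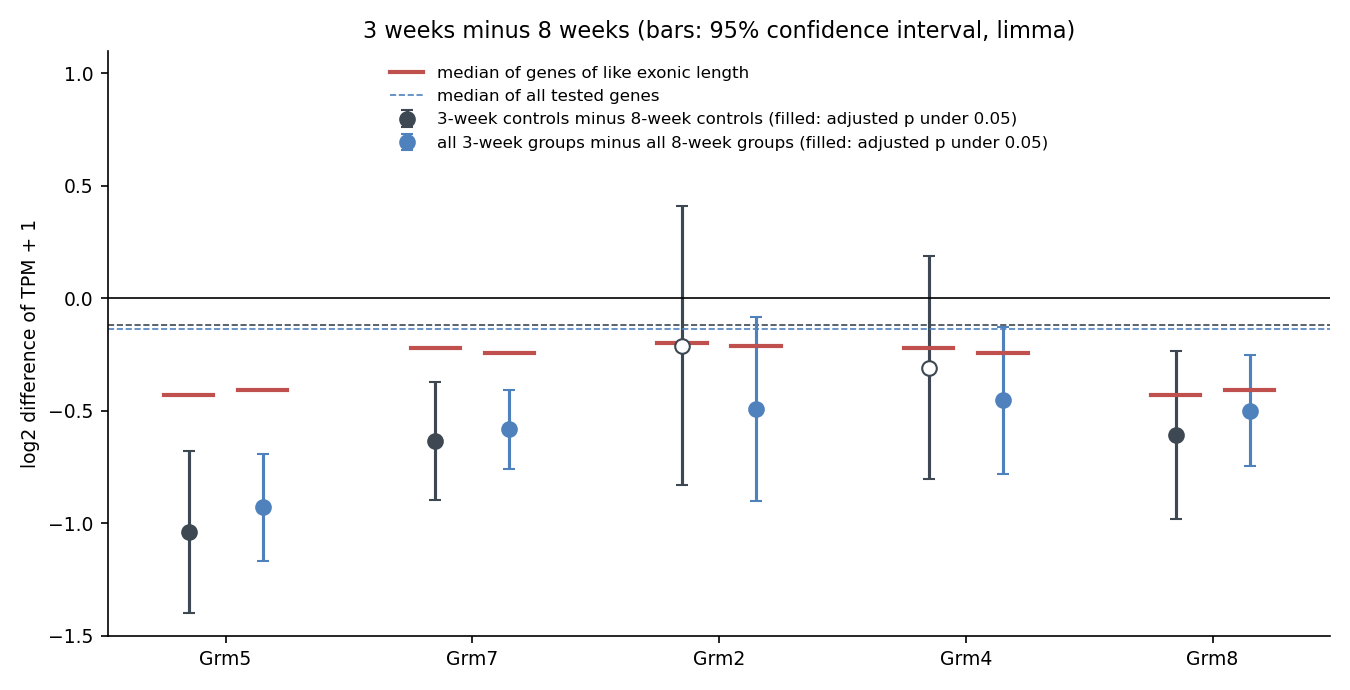
Log2 difference of TPM + 1 between 3 and 8 weeks (y axis) for each receptor (x axis), in controls alone (dark) and over all groups (blue), with 95% confidence intervals, filled where the adjusted p was under 0.05. Red lines give the median of genes of like exonic length and dashed lines the median of all tested genes, in the colour of each comparison. The intervals of Grm5 (-1.04 and -0.93) and Grm7 (-0.64 and -0.58) lie below their red lines, while Grm2 in controls sits on its line.

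All 17 mice were also split by age, averaging the 4 groups of 8 weeks and the 2 groups of 3 weeks; this contrast shares its controls with the one above and is no independent evidence. Each of the 5 receptors was lower at 3 weeks, where 39.4% of all genes were. Grm5 ranged from 25.73 to 32.69 TPM (median 30.8) in 5 mice of 3 weeks and from 40.19 to 73.89 TPM (median 60.8) in 12 mice of 8 weeks, and Grm7 from 19.69 to 22.95 TPM (median 21.1) and from 24.53 to 40.28 TPM (median 33.0). Neither gene overlapped between the ages, which held for 10.2% of all genes in this direction, and the log2 differences were -0.93 (adjusted p = 8.08e-06) and -0.58 (adjusted p = 2.97e-05). For Grm8 (-0.50, adjusted p = 0.00184), Grm4 (-0.45, adjusted p = 0.0196) and Grm2 (-0.49, adjusted p = 0.0390) the ages overlapped. The call for Grm2 was the least firm, since it held in 6 of 17 leave-one-out fits, and that for Grm4 held in 16, failing without P209L Control 2 (adjusted p = 0.0926). Without P209L Control 2, 3 of 5 receptors passed as lower, where 5406 of 16265 genes did. Over the same mice 7 of 8 astrocyte markers (median -0.40) and 6 of 10 cortical excitatory neuron markers (median -0.35) were lower at 3 weeks, and their part was not tested.

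The proportions of the receptors within a mouse are given as a description, and no difference between receptors was tested. The 5 receptors summed to 82.0 to 161.6 TPM (median 128.8) at 8 weeks and to 70.9 to 80.8 TPM (median 75.2) at 3 weeks, so that the ages did not overlap. Grm5 made up 46.2 ± 3.51% of this sum at 8 weeks (SD, n = 12; 38.8 to 51.1%) and 40.0 ± 2.87% at 3 weeks (SD, n = 5; 35.9 to 43.4%). Grm7 made up 25.9 ± 1.65% (24.2 to 29.9%) and 28.4 ± 2.24% (27.0 to 32.4%), so both shares overlapped between the ages. The ratio of Grm5 to Grm7 within a mouse, which no scaling of the library can alter, was 1.48 to 2.11 at 8 weeks (median 1.83) and 1.29 to 1.55 at 3 weeks (median 1.43). These ranges overlap through KO 1 and KO 3. The ratio of Grm2 to Grm4 had medians of 2.13 and 2.30, inside overlapping ranges. Shares and ratios were computed after the levels had been seen.

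**Figure D4:**
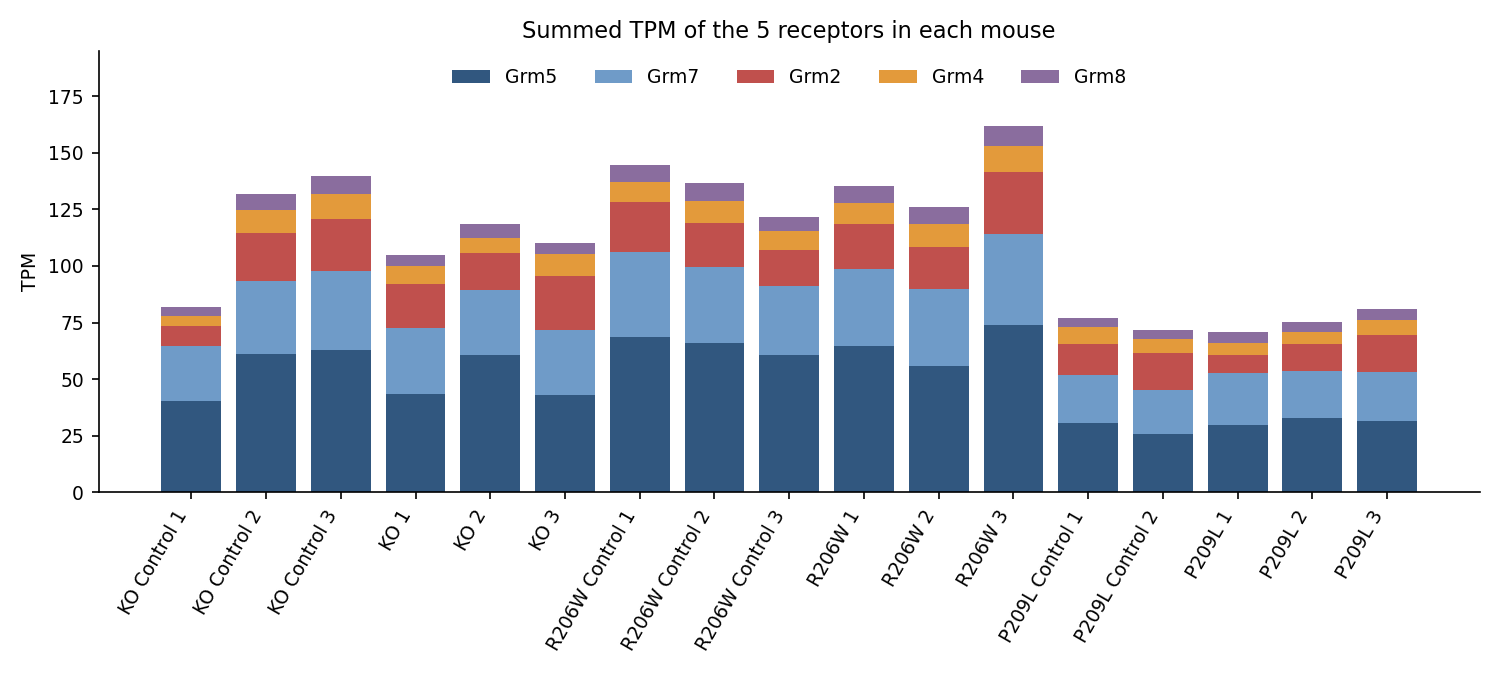
Summed TPM of the 5 receptors (y axis, stacked bars from 0, coloured by gene) in each of the 17 mice (x axis). The 5 bars of 3 weeks at the right reach 70.9 to 80.8 TPM, below each bar of 8 weeks, of which KO Control 1 at 82.0 TPM is the lowest.

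The wild-type controls of the KO and R206W lines, both at 8 weeks, showed how far receptor levels vary between lines without a mutation. None of the 5 receptors passed (0 of 5 at an unadjusted p under 0.05), and neither did any of the 16265 genes tested (0%, against 507 at an unadjusted p under 0.05). The log2 differences of R206W Control minus KO Control were between 0.15 (Grm4, 95% interval -0.34 to 0.65) and 0.27 (Grm5, -0.09 to 0.63), beside a median of all genes of 0.13. Without KO Control 1 those of Grm2 (-0.21), Grm4 (-0.22) and Grm8 (-0.059) were below 0 and those of Grm5 (0.070) and Grm7 (0.012) above.

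The genes that carry the signal of these receptors were followed in the same comparisons, in 7 lists by role. In KO, R206W and P209L mice, 0 of the 87 tested genes of these lists passed the adjusted threshold. At an unadjusted p under 0.05 the lists held 0 of 87 in KO (4.08% of all genes), 2 of 87 in R206W (2.30%, against 2.19% of all genes) and 8 of 87 in P209L mice (9.20%, against 7.46%), so the shares in R206W and P209L were near those of all genes. The genes counted in R206W were Grk5, a receptor kinase (log2 difference 0.43), and Trpc5, a cation channel opened through Gq signalling (0.42), named after their values were seen. The 8 counted in P209L were Glul, Gnai3, Gng2, Grk5, Ppp1cc, Rgs17, Trpc4 and Trpc5. Grk5 and Trpc5 were thus counted in both lines. The share of all genes counted in both is not given here, and an effect shared by the lines was not tested. Trpc5 was low in P209L Control mice, at 1.45 to 1.7 TPM.

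Between 3-week and 8-week controls, genes of each list passed as lower and none as higher, where 24.8% of all genes were lower; the genes named are the 2 of each list with the smallest p. Grm3, which is no member of the set, was at 20.1 ± 1.07 TPM at 3 weeks (SD, n = 2) and 45.9 ± 4.21 TPM at 8 weeks (SD, n = 6), a log2 difference of -1.15 (adjusted p = 1.09e-05). Grm3 therefore lay above Grm7 in each of the 12 mice of 8 weeks but in only 2 of the 5 of 3 weeks. Of 9 tested scaffolds and partners of group I receptors, 5 were lower (median log2 difference -0.77), with Homer2, which ties these receptors to calcium stores, at -0.77 (adjusted p = 5.90e-05) and Frmpd4, a scaffold that binds Homer and Grm5, at -1.02. Of 17 genes of Gq, phospholipase C and calcium release, 7 were lower (median -0.40). The inositol trisphosphate receptor gene Itpr1 stood at 40.6 ± 3.40 TPM at 3 weeks (SD, n = 2) and 205.8 ± 41.3 TPM at 8 weeks (SD, n = 6), a log2 difference of -2.28 (adjusted p = 7.77e-06), and Trpc5 at -1.04.

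Of 16 Gi/o protein and adenylyl cyclase genes, 9 were lower (median -0.45, lowest -1.37). Those with the smallest p were the calcium-stimulated cyclase Adcy1, at 90.5 ± 2.62 and 234 ± 36.4 TPM (log2 difference -1.35, adjusted p = 3.27e-05), and Adcy5 (-0.71). The partners of group III receptors had 3 of 8 lower (median -0.42), among them Elfn2 (-0.87), a transsynaptic partner of these receptors, and Ppp1cc (-0.63), a phosphatase subunit that binds the Grm7 tail. Of 13 RGS proteins, receptor kinases and arrestins, which end receptor signalling, 5 were lower, but the median (-0.13) was that of all genes (-0.12). Those with the smallest p were Grk2 (-0.80) and Rgs17 (-0.80). Of 12 genes of glutamate release, uptake and metabolism 6 were lower (median -0.45), with the astrocyte enzyme Glul, which makes glutamine from glutamate, at 508 ± 52.9 and 1051 ± 140 TPM (-1.04, adjusted p = 9.97e-05) and the transporter Slc1a2 at -0.73. Of 12 genes of the protein synthesis that follows group I receptor activation 6 were lower (median -0.39), with the microtubule-associated Map1b at -1.61 and Cyfip2, a partner of the fragile X protein, at -1.19. The share of lower genes was thus above the background of 24.8% in each list, and the part of exonic length in this was not tested. The lists were chosen with earlier results of these data known, so these shares are a description and no independent support.

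**Figure D5:**
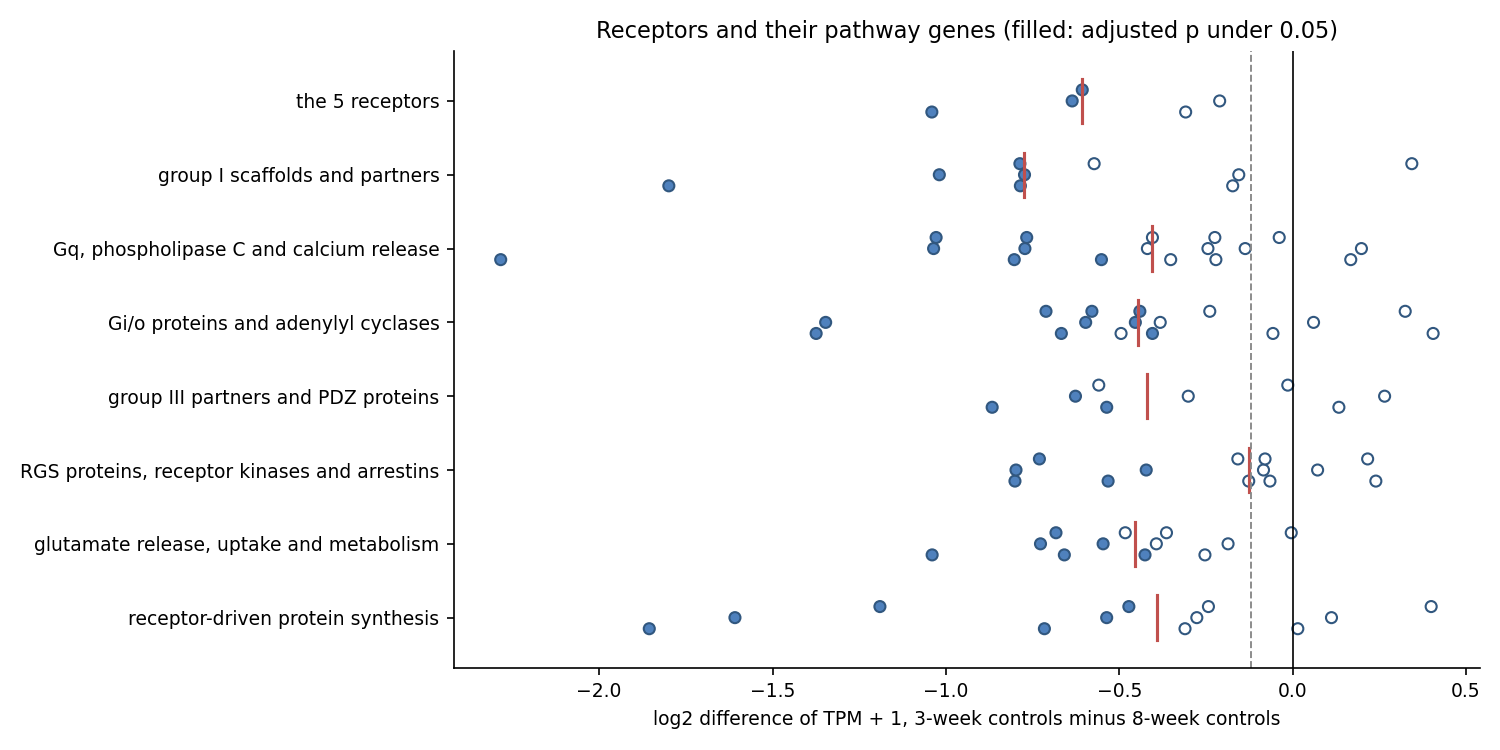
Log2 difference of TPM + 1 between 3-week and 8-week controls (x axis) of each tested gene (points, filled where the adjusted p was under 0.05) among the 5 receptors and in the 7 lists of pathway genes (rows), with the median of each list (red line) and of all tested genes (dashed line at -0.12). The filled points all lie below 0, from -0.40 down to -2.28 for Itpr1.

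For each receptor the genes most like it were sought by Pearson correlation of log2(TPM + 1) over the 12 mice of 8 weeks. Grm5 ran closest to Mef2a, a transcription factor gene (r = 0.987, Spearman rho = 0.979), and Kif2a, a kinesin gene (r = 0.985, rho = 0.972), and Grm8 to Ptprt and Pcdh17, which encode adhesion molecules (r = 0.973 for both, rho = 0.930 and 0.937). Grm7 was most like Raph1 (r = 0.969) and Lrp11 (r = 0.968), Grm2 like Eml1 (r = 0.985) and the DNA methyltransferase gene Dnmt3a (r = 0.983), and Grm4 was close to Zzef1 (r = 0.982). Without the 2 mice farthest from the median of the receptor, 1 of which was KO Control 1 each time, r was between 0.910 and 0.976. The mice differ in line, library composition and mutant or control status, and the part of these in the correlations was not tested. Each r is 1 of the 2 highest for that receptor among 16265 genes, so no p is given.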

How the data were processed

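Total RNA from frozen cortex (RNAlater-ICE, RNeasy) of 17 mice was sequenced as TruSeq Stranded Total RNA libraries. The authors deposited TPM values per gene symbol, which sum to 1000000 in each library and are given to 2 decimals. The submitters' processing notes name Trim Galore, STAR 2.7.1a, GATK 4.0.4.0, RSEM and mm10; the annotation and the use of strand are not given in the sources used here. TPM keeps no depth, and a few abundant transcripts can lower all other genes of a library. The table had 55573 entries, 120 of them repeats of a symbol that were summed. Of 55453 symbols, 98.3% were found in GENCODE M21.

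Groups followed the sample titles. The 16265 genes that averaged 1 TPM or more were tested as log2(TPM + 1) with limma 3.58.1 in R 4.3.3 (6 group means, eBayes with trend=TRUE, two-sided, Benjamini-Hochberg over all tested genes, threshold 0.05). A fold on this scale understates the change of low genes. All groups shared 1 spread per gene. Exact permutation tests on TPM were two-sided and cannot fall below 0.1 for 3 mice against 3 or 2. The labels do not say that the mice of a group came from separate litters, so p-values measure the spread between these samples. Intervals are 95% limma intervals. The fits were tested on simulated data of independent normal noise with known shifts added. Those data held no outlying library like KO Control 1, so the test does not bear on such a library. Figures were drawn with matplotlib 3.10.9.

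The members and gene lists were chosen with earlier results of these data known. Named were the 5 receptors, others of the family, Hnrnph2, pathway genes past the threshold in a mutant comparison, the 2 with the smallest p per list between control ages, and the 2 genes most like each receptor over 8-week mice; some of these are not reported here. Alternatives were pseudocounts of 0.1 and 0.5, no filter and a mean of 5 TPM, quantile normalization, median-of-ratios size factors, mitochondrial genes taken out, fits on the groups compared alone, robust=TRUE, sample weights (arrayWeights), a replicate block and leaving out each mouse. Fits without KO Control 1 and P209L Control 2, and with size factors and without KO Control 1, were added after the data were seen.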

Additional observations from a re-analysis of the deposited data

Results flagged for a closer look

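Among the 6 controls of 8 weeks, Grm5 was at 40.19 TPM in KO Control 1 while the other 5 lay between 60.61 and 68.71 TPM. The gap took 0.716 of the range, above the limit of 0.625 that Dixon's test sets for 6 samples at 95%. This was 1 of 15 sets of mice screened, and chance flags about 1 in 20. The other 4 receptors were also lowest in this mouse among those controls, and its mitochondrial share of 20.1% was the highest of the 17 libraries; the part of that share in the value was not tested.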

How the results depend on the processing

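In KO, sample weights raised the count of receptors past the threshold from 0 to 3, in a fit where 2138 of 16265 genes passed. Grm5 was at -0.37, Grm8 at -0.44 and, against its main sign, Grm4 at -0.35, while Grm2 turned to -0.16. Grm4 (main 0.0071) also turned to -0.054 with size factors, -0.047 with quantile normalization, -0.0026 without mitochondrial genes and -0.30 with size factors and without KO Control 1, a fit in which Grm2 was at -0.094. With 1 mouse left out, the KO differences ran from -0.16 to 0.48 for Grm2, -0.36 to 0.23 for Grm4 and -0.21 to 0.039 for Grm7, and in R206W from -0.11 to 0.088 for Grm5. In P209L no receptor changed sign or passed, but the sizes moved with 1 mouse left out, from -0.57 (without P209L 3) to -0.11 (without P209L 1) for Grm2, -0.32 to -0.11 for Grm4, 0.015 to 0.27 for Grm5, 0.075 to 0.15 for Grm7 and 0.091 to 0.26 for Grm8, the last 4 between the fits without P209L Control 2 and without P209L Control 1. Between control ages, Grm8 fell short with only the groups compared (-0.61, adjusted p = 0.0672) and ran from -0.73 to -0.52 with 1 mouse left out. Grm4 passed with sample weights (-0.47) and with size factors without KO Control 1 (-0.30), and ran from -0.49 to -0.20 with 1 mouse left out. Grm5 and Grm7 passed in each of these fits, with an adjusted p of at most 0.0158 and 0.0283. Over all mice, 3 receptors passed with no filter, where 6496 of 33969 genes passed as lower. With quantile normalization 3 receptors passed, where 4967 of 16265 genes passed as lower. With 1 mouse left out 3 to 5 passed, where 5300 to 7494 of 16265 genes passed as lower. For R206W Control minus KO Control, sample weights turned Grm2 to -0.15 and Grm4 to -0.13, and size factors without KO Control 1 turned Grm2 to -0.22, Grm4 to -0.22 and Grm8 to -0.061; with 1 mouse left out the ranges were -0.21 to 0.43, -0.22 to 0.37 and -0.059 to 0.35. Of the differences between lines, KO minus R206W turned for Grm2 with sample weights (-0.24) and with size factors without KO Control 1 (-0.27), and KO minus P209L for Grm4 with sample weights (-0.10). With 1 mouse left out these ran from -0.35 to 0.29 (Grm2) and -0.51 to 0.086 (Grm4) for KO minus R206W, -0.15 to 0.45 (Grm4) for KO minus P209L, and -0.11 to 0.042 (Grm7) and -0.14 to 0.033 (Grm8) for R206W minus P209L. The cause of these shifts was not tested. Over 935 values of single receptors, 872 kept their direction and side of the threshold. Of the rest, 38 changed direction, and with the direction kept 20 lost and 5 gained a pass. Outside the comparisons of age no receptor had passed in the main fit, so keeping that side says little there.

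Whether replicate numbers pair the mice cannot be settled from these values. Same-numbered mice correlated in their deviations with r = 0.12, -0.058 and 0.33 in the KO line, where different numbers gave -0.30 to 0.26. In R206W r was -0.028, -0.030 and -0.11, where different numbers gave -0.075 to 0.10. In P209L it was 0.081 and 0.0028, but the 2 controls deviate from their mean by equal and opposite amounts, so these values cannot show pairing. With the replicate number as a block, Grm5 between control ages was -1.02 and no call of a receptor changed. Between control ages 3 receptors passed as lower in that fit, where 3864 of 16265 genes did. Grm2 in P209L was at -0.57, as without P209L 3, which has no control of its number. All genes past the threshold went from 6 to 4 in R206W and from 16 to 9 in P209L; with sample weights 2138 passed in KO, 149 passed in R206W and 72 passed in P209L, and with size factors 66 in P209L. With 2 or 3 mice a group and no depth, differences the size of the intervals given cannot be told from 0.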
